A study of Mus musculus with 18 samples.

Results

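The genes described here were 8 transcription factor genes of the hepatocyte lineage, *Hnf4a*, *Foxa1*, *Foxa2*, *Foxa3*, *Cebpa*, *Cebpb*, *Onecut1* and *Nr1h4*, picked by symbol from a liver table of 51826 genes and an MEF table of 21959 genes. All 8 were listed in both tables. The RepB-/- mice lack repeat B of *Xist*, the X-linked RNA that silences one X chromosome in female cells, in the whole body, after CRISPR editing in ICR zygotes, and the WT mice keep it. RNA-seq counts of 3 RepB-/- and 3 WT livers and of 3 RepB-/- and 3 WT cultures of MEFs (mouse embryonic fibroblasts) were compared, and brain libraries were not analysed here. Genotypes were read from the letters B and W in the sample titles. In the paper RepB-/- stands for homozygous females, while the labels give neither age nor sex of each liver animal, and the MEF labels name both tail tissue and a primary MEF line. They do not state whether each replicate is a separate animal or culture, so p-values measure only the spread between these libraries.

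Hepatocytes arise from foregut endoderm, where the FOXA factors open chromatin at liver genes as pioneer factors. HNF4A, a nuclear receptor, then holds most hepatocyte genes active, together with C/EBPα, which drives metabolic and secretory genes, and the cut-homeodomain factor ONECUT1 (HNF6), which acts in hepatoblasts and bile duct formation. C/EBPβ responds to inflammation, regeneration and hormones in liver and acts early in adipocyte differentiation of fibroblasts. *Nr1h4* encodes FXR, the bile acid receptor, which controls bile acid synthesis and transport.

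Liver libraries held 37682201 to 51542709 counts and MEF libraries 11540344 to 20587556. The library labelled liver RepB-/- replicate 2 held 4 counts of *Xist* (14494 to 26345 in the other liver libraries) and 4342 counts of 4 Y-linked genes (at most 1 in each other liver library). Such counts mark a male rather than a homozygous female, and the library was kept in the main RepB-/- group under its label. Member estimates and list counts that it moved by over 1.5 times are given with and without it. Hepatocyte markers were present in every liver library, with *Alb*, which encodes serum albumin, at 81930 to 163200 CPM (counts scaled to a common library total), and summed to at most 1.04 CPM in the MEF libraries. Both liver libraries numbered 1 carried fetal liver transcripts, with *Afp* (alpha-fetoprotein) at 506.6 CPM in RepB-/- and 368.9 in WT against 2.79 to 6.05 in the other 4.

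The sequence before the transcription start of the members around which the results turn is shown first, with bases that match a searched motif in capitals. RefSeq promoters (GRCm38.p6) were found for all 8 members, with 11 starts between them, and the windows run 5′ to 3′ along the gene's own strand, without bases that the annotation places in an exon. *Hnf4a* has a distal start, before which lies chr2:163506607-163506807 (plus strand), and a proximal start 3′ of it, before which lies chr2:163546943-163547154 (plus strand). The capital G that opens the proximal window ends a match of ATTGG, the CCAAT motif on the other strand. The rest of that match lies in an exon and is not printed. The other windows are chr2:148046970-148047219 (minus strand) for *Foxa2*, chr7:35119043-35119292 (plus strand) for *Cebpa*, chr2:167688665-167688914 (plus strand) for *Cebpb* and chr10:89506659-89506908 (minus strand) for *Nr1h4*, which lies before a start inside the gene.
Hnf4a, distal: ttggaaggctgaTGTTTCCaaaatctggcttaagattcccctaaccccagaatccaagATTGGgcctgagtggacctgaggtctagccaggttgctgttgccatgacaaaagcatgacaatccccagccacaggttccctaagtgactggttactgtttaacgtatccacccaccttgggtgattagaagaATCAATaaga
Hnf4a, proximal: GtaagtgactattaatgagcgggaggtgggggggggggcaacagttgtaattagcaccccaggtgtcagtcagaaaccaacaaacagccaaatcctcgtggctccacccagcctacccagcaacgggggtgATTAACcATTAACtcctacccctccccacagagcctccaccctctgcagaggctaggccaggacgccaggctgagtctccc
Foxa2: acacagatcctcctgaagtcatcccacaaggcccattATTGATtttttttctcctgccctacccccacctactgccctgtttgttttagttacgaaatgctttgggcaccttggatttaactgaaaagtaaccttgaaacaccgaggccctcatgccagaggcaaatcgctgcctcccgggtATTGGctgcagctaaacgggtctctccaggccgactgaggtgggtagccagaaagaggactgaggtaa
Cebpa: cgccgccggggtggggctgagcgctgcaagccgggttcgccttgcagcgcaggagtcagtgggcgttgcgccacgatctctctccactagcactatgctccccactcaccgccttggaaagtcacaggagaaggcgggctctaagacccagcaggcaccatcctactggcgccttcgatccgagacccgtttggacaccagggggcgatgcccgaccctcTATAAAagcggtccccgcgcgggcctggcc
Cebpb: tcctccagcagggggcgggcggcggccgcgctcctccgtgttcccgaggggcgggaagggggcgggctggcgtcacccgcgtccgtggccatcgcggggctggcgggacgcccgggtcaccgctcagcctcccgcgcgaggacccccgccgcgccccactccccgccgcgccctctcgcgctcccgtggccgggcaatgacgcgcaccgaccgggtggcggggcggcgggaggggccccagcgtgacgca
Nr1h4: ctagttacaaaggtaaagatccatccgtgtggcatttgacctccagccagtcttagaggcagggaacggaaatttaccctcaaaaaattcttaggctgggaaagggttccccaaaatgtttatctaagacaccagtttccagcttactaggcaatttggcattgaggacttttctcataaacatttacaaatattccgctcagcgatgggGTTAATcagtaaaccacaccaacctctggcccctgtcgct

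The motifs were searched on both strands in the 250 bases before each start, and their share among all 32851 promoters of the table is given beside the members. The HNF1 motif GTTAAT occurred in windows of *Hnf4a*, *Foxa2* and *Nr1h4*, with 2 matches 81 and 74 bases before the proximal *Hnf4a* start, and in 6.43% of all promoters. ONECUT's ATTGAT lay in windows of *Hnf4a* and *Foxa2* (2 of 11 windows, 6.72% of all promoters). FOXA's TGTTTNC lay in windows of *Hnf4a* and *Foxa1* (2 of 11 windows, 17.8% of all promoters). A TATA box (TATAAA) lay 30 bases before the *Cebpa* start and 36 before the *Foxa3* start. Another *Foxa2* window held these letters on the other strand, 208 bases before its start. The letters were thus in 3 of 11 member windows and in 12.4% of all promoters. CCAAT was found for *Foxa1*, *Foxa2*, *Foxa3* and *Hnf4a* (5 of 11 windows, 33.8% of all promoters). No member window held the HNF4 motif CAAAGTCCA, the C/EBP motif TTGCNNAA or the cyclic AMP response element TGACGTCA, which 0.384%, 9.56% and 1.55% of all promoters hold. None of the searched letters occurred in the *Cebpb* and *Onecut1* windows, of which 81.6% and 71.6% of bases were G or C. No 2 matches overlapped in the printed windows, and a match of letters does not show that a factor binds.

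Per transcript length, *Hnf4a* and *Cebpa* led the members in WT liver and *Foxa1* and *Onecut1* came last. Levels are in the authors' TPM, in which counts per transcript length are scaled to the same total in each library. In WT liver the mean was 210 ± 46.7 TPM for *Hnf4a*, 188 ± 10.4 for *Cebpa*, 84.2 ± 47.7 for *Cebpb*, 72.5 ± 28.7 for *Nr1h4*, 57.9 ± 35.2 for *Foxa3*, 39.0 ± 6.20 for *Foxa2*, 8.96 ± 2.62 for *Onecut1* and 8.40 ± 0.836 for *Foxa1* (SD, n = 3 each). Only the steps from *Cebpa* to *Cebpb* and from *Foxa2* to *Onecut1* had no overlap between neighbouring genes' libraries. In RepB-/- liver the order by mean was *Hnf4a* (184 ± 42.7 TPM), *Cebpb* (164 ± 25.4), *Cebpa* (111 ± 87.9), *Nr1h4* (49.4 ± 12.9), *Foxa3* (43.0 ± 17.2), *Foxa2* (18.5 ± 6.93), *Onecut1* (11.0 ± 5.39) and *Foxa1* (10.1 ± 6.02), and every pair of neighbours overlapped.

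**Figure D1:**
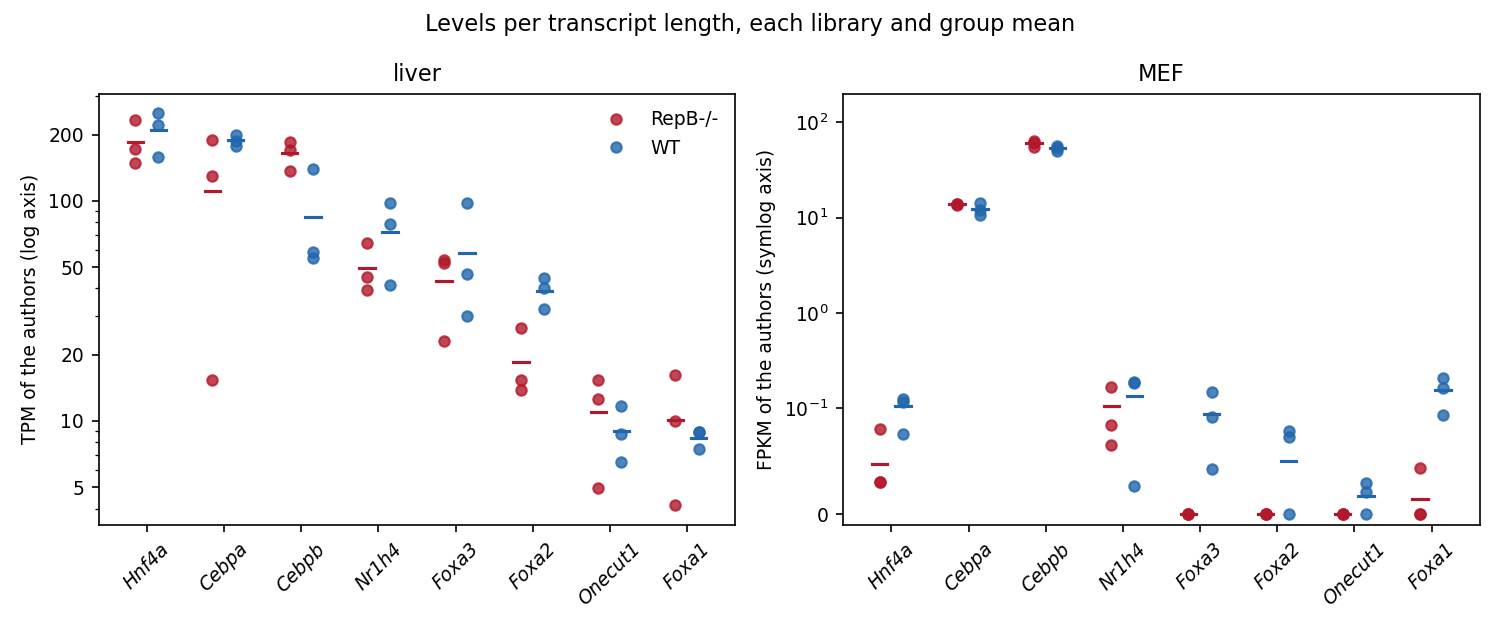
Levels of the 8 genes per transcript length in liver (left, TPM, log axis) and MEFs (right, FPKM, linear below 0.1 and logarithmic above), with 1 point per library, RepB-/- in red and WT in blue, and a bar at each group mean. *Hnf4a* and *Cebpa* stand highest in WT liver at 210 and 188 TPM, and in MEFs *Cebpa* and *Cebpb* alone exceed 1 FPKM.

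The liver genotypes were compared to see whether the loss of repeat B changed these regulators. None of the 8 members passed an adjusted p of 0.05 in edgeR's quasi-likelihood test, which called 6 of 16080 genes (0.0373%). Unadjusted, p was under 0.05 for 2 members, *Foxa2* and *Cebpb*, and for 3.12% of all genes tested. DESeq2 called none of the 8 and 0.425% of all genes with an adjusted p. The estimates were higher in RepB-/- for 4 members and lower for 4, with a median log2 fold change of -0.054 against 0.012 over all genes tested. In bulk tissue, fewer cells of a type and less RNA per cell cannot be told apart. The values below are CPM normalised by TMM, with replicates in the order 1, 2 and 3.

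*Hnf4a* (ENSMUSG00000017950, chromosome 2 from 163506808 to 163572910, GRCm38), the nuclear receptor HNF4A, had 362, 621 and 637 CPM in RepB-/- and 343, 645 and 550 in WT. In both genotypes replicate 1 was low and the groups overlapped. Its log2 fold change was 0.076 (SE 0.38, edgeR adjusted p = 1.00), or -0.038 without RepB-/- replicate 2. The counts join transcripts from both starts. Its antisense gene *Hnf4aos* shares no exon base with it.

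The 3 FOXA genes gave different patterns. *Foxa1* (ENSMUSG00000035451, chromosome 12 from 57540628 to 57546916) had 7.41, 31.4 and 27.3 CPM in RepB-/- and 13.1, 17.0 and 14.0 in WT. RepB-/- replicate 1 was the lowest of the 6 libraries and the other 2 RepB-/- libraries the highest (log2 fold change 0.58, SE 0.50). The estimate for *Foxa1* was 0.24 without RepB-/- replicate 2 and 1.00 without RepB-/- replicate 1. *Foxa2* (ENSMUSG00000037025, chromosome 2 from 148042877 to 148046969), which acts with *Foxa1* in liver specification, had 17.2, 30.7 and 17.0 CPM in RepB-/- and 38.3, 46.7 and 32.1 in WT. Every RepB-/- library lay below every WT library, as was the case for 4.66% of all genes tested. The log2 fold change of *Foxa2* was -0.85 (SE 0.30, edgeR adjusted p = 1.00). With the Y-linked library removed from RepB-/- it was -1.19 (edgeR adjusted p = 0.999). In the authors' TPM the 2 groups were also apart, at 13.8 to 26.5 against 32.3 to 44.5. *Foxa3* (ENSMUSG00000040891, chromosome 7 from 19013284 to 19023538), the third family member, had 61.6, 66.5 and 40.6 CPM in RepB-/- and 99.4, 36.6 and 55.7 in WT. The groups overlapped and WT replicate 1 was the highest library (log2 fold change -0.18, SE 0.39). Without it the estimate was 0.29, and without RepB-/- replicate 2 it was -0.32.

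Among the C/EBP genes, *Cebpb* (ENSMUSG00000056501, chromosome 2 from 167688915 to 167690418) had 144, 175 and 176 CPM in RepB-/- and 105, 49.6 and 51.8 in WT. All RepB-/- libraries lay above all WT libraries, as did those of 3.38% of the genes tested. The log2 fold change of *Cebpb* was 1.26 (SE 0.34, edgeR adjusted p = 1.00), with an adjusted p of 0.174 by DESeq2. Dropping single libraries gave edgeR adjusted p from 0.327 to 1.00. In the authors' TPM the groups overlapped, since RepB-/- replicate 3 had 136 and WT replicate 1 had 139. WT replicate 1, the WT library nearest the RepB-/- group, stood apart in 2 of 5 Kupffer cell markers, *Marco*, a scavenger receptor, at 342 CPM against 8.24 to 52.8 in the other liver libraries, and *Adgre1* at 56.4 against 18.6 to 22.4. Its level of *Clec4f* was 103 CPM, within the 69.5 to 146 of the others, and *Cd68* and *Vsig4* were highest in RepB-/- replicate 3, at 50.2 and 113 CPM. The 5 summed to 583.5 CPM in WT replicate 1 and 203 to 312 in the others, and none was at 0 in any liver library. The part of these cells in the *Cebpb* values was not tested. *Tmem189*, on the opposite strand, shares 312 of the 1504 exon bases of *Cebpb* and had 233 to 399 counts per liver library, whereas *Cebpb* had 1921 to 8793.

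*Cebpa* (ENSMUSG00000034957, chromosome 7 from 35119293 to 35121928) had 22.6, 309.5 and 293 CPM in RepB-/- and 261, 294 and 276 in WT. A single library, RepB-/- replicate 1, stood far below the rest, and the other 5 spanned a narrow range. The log2 fold change of -0.41 (SE 0.81, edgeR adjusted p = 1.00) became 0.12 (adjusted p = 0.999) without that library and -0.81 without RepB-/- replicate 2.

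*Onecut1* (ENSMUSG00000043013, chromosome 9 from 74861921 to 74891781), the gene of HNF6, had 9.58, 25.3 and 49.3 CPM in RepB-/- and 11.4, 21.6 and 16.5 in WT. Replicate 1 was lowest in both genotypes, and the highest library was RepB-/- replicate 3 (log2 fold change 0.76, SE 0.57, or 0.088 without that library). The long noncoding RNA gene *Gm20649* shares 2171 of the 4113 exon bases of *Onecut1* on the same strand, and it had 0 to 41 counts per library, so how reads were divided between these genes is uncertain. *Nr1h4* (ENSMUSG00000047638, chromosome 10 from 89454234 to 89533585), the FXR gene, had 43.8, 79.5 and 76.6 CPM in RepB-/- and 41.2, 117 and 91.5 in WT. Replicate 1 was again lowest in each genotype, and the groups overlapped (log2 fold change -0.32, SE 0.42, adjusted p = 1.00).

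**Figure D2:**
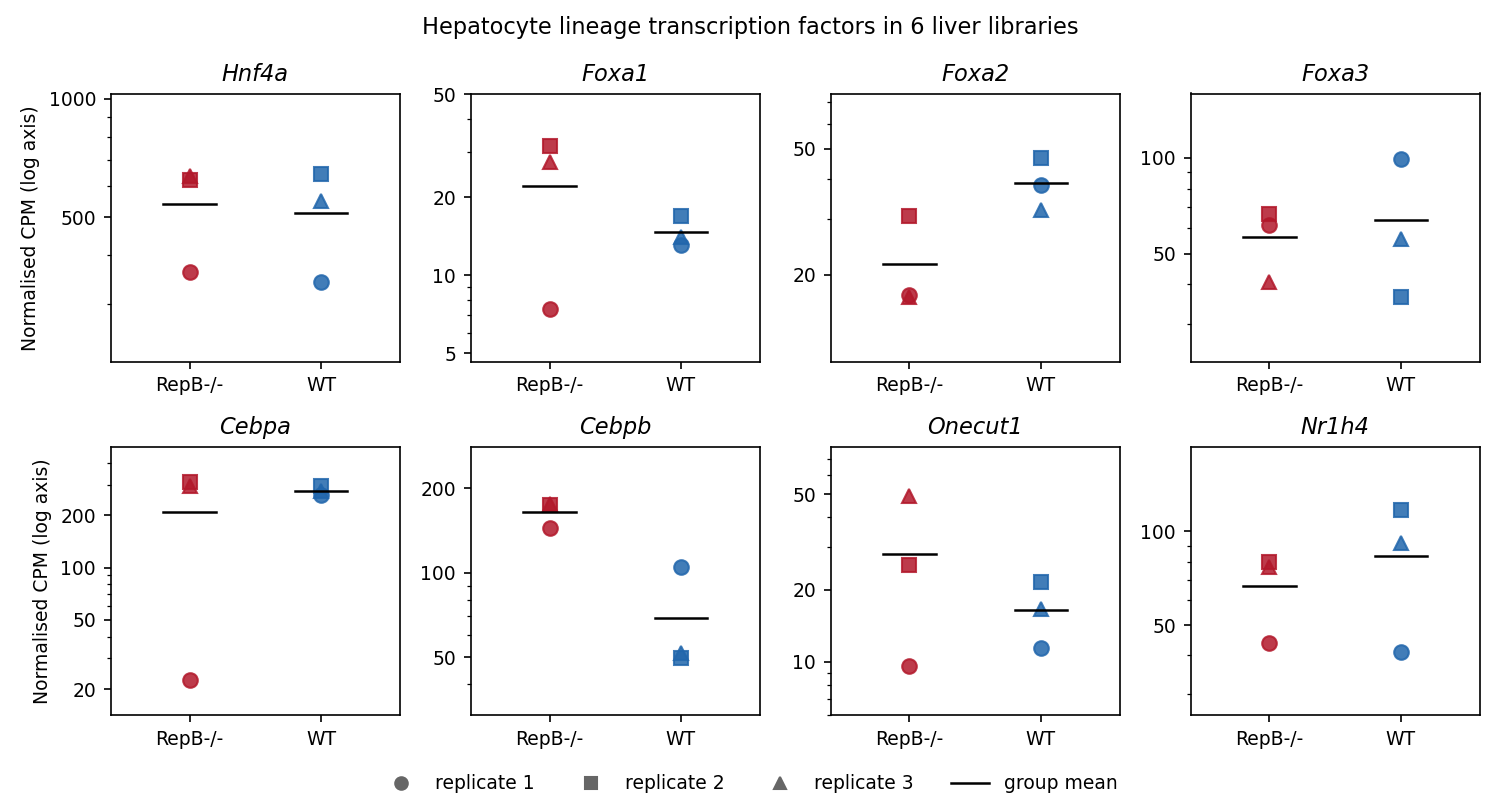
Normalised CPM (log axis, scaled for each panel) of the 8 genes in 3 RepB-/- (red) and 3 WT (blue) liver libraries, with symbols for the replicate number and a line at the group mean. *Foxa2* and *Cebpb* are the genes whose groups do not overlap, and *Cebpa* is low only in RepB-/- replicate 1 at 22.6 CPM.

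With a term for replicate 1 against 2 and 3 in the fit, the estimates for liver were 1.35 (SE 0.30, edgeR adjusted p = 0.355) for *Cebpb* and -0.87 (SE 0.28, adjusted p = 0.562) for *Foxa2*, and no member passed. The other 6 estimates were 0.077 for *Hnf4a*, 0.36 for *Foxa1*, -0.085 for *Foxa3*, -0.99 for *Cebpa*, 0.57 for *Onecut1* and -0.25 for *Nr1h4*. For *Cebpa* the SE was 0.76 and the edgeR adjusted p was 0.771. Its estimate lay between -1.60 and -1.19 when a library numbered 2 or 3 was also left out. Each of these fits kept RepB-/- replicate 1, which had 22.6 CPM of *Cebpa* against 261 to 309.5 in the other liver libraries. Without that library, and without the term, the estimate for *Cebpa* was 0.12. With that term and without RepB-/- replicate 2 the estimates for *Cebpb* and *Foxa2* were 1.25 (adjusted p = 0.548) and -1.19 (adjusted p = 0.405), and those for *Foxa1* and *Foxa3* were 0.16 and -0.40.

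**Figure D3:**
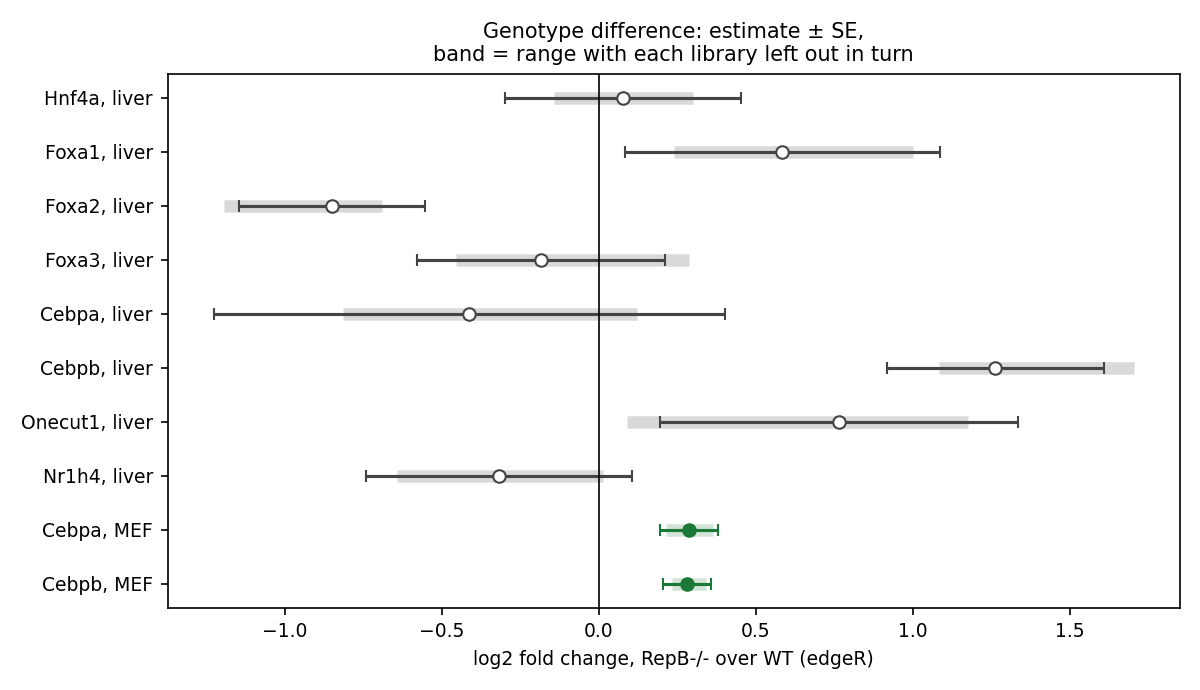
Log2 fold change of each tested member, RepB-/- over WT, from edgeR in liver (grey) and MEFs (green), with bars for 1 standard error, bands for the range with each library left out in turn, and filled points for an adjusted p under 0.05. The liver bands of *Hnf4a*, *Foxa3*, *Cebpa* and *Nr1h4* cross 0, while those of *Foxa1* (0.24 to 1.00), *Foxa2* (-1.19 to -0.69), *Cebpb* (1.08 to 1.70) and *Onecut1* (0.088 to 1.18) do not, and only the 2 MEF points are filled.

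Replicate 1 was then set against replicates 2 and 3 in liver, as a description without a test, since the split was chosen with results of these data in view. For 5 of the 8 members both libraries numbered 1 lay below all 4 others, and for none above, while 21.3% of all genes tested lay below and 23% above. *Hnf4a* was lower by the same amount in both genotypes, 1.74-fold in RepB-/- and 1.74-fold in WT. *Nr1h4* was 1.78-fold lower in RepB-/- and 2.51-fold lower in WT. *Onecut1* was 3.68-fold and 1.66-fold lower, and *Foxa1* 3.94-fold and 1.18-fold lower. *Cebpa* was 13.3-fold lower in RepB-/- and 1.09-fold lower in WT. In the authors' TPM only *Hnf4a*, *Onecut1* and *Nr1h4* were apart in this way, since *Foxa1* and *Cebpa* of WT replicate 1 then exceeded the other WT libraries. *Foxa2* and *Foxa3* overlapped, although *Foxa3* of WT replicate 1 was 2.20-fold above the other WT libraries. In TPM, and without RepB-/- replicate 2, *Foxa3* of both libraries numbered 1 lay above the rest. Without that library the count of members below was again 5.

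Markers of other cells and stages were set on the same split, where 23% of all genes tested were higher in both libraries numbered 1. All 5 tested fetal liver markers, all 6 proliferation markers and all 8 fibroblast markers were higher in both libraries numbered 1. The 8 fetal liver markers summed to 5994 CPM in RepB-/- replicate 1 and 4776 in WT replicate 1 against 5.62 to 27.1 elsewhere, led by *H19* and *Igf2*, both imprinted and high before birth. For the fibroblast markers the sums were 3447 and 3635 CPM against 1460 to 1986. The erythroid markers summed to 4466 CPM in RepB-/- replicate 1 and 1625 in WT replicate 1, and to 261 to 2249 in the others. The 2249 was that of RepB-/- replicate 2, the others reached at most 1394, and the erythroid markers higher in both libraries numbered 1 were 1 of 9 with RepB-/- replicate 2 and 5 of 9 without it. Of the endothelial markers 3 of 5 were higher, of the stellate cell markers 3 of 4 and of the cholangiocyte markers 2 of 5 (3 without RepB-/- replicate 2). Of the Kupffer cell markers 2 of 5 were higher, or 1 of 5 with DESeq2 size factors. In lists this short such counts are not read as a move of those cells. The part of stage and of other cell types in the members' values was not tested.

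Of 10 tested FXR targets, 9 lay below in both libraries numbered 1 and 1 above, with TMM and with DESeq2 size factors alike. Over all genes tested the shares were 21.3% below and 23% above. The list was not split by the direction in which FXR acts on each gene, so nothing is read from this count about FXR activity. *Baat*, which conjugates bile acids, had 40.7 CPM in RepB-/- replicate 1 and 32.1 in WT replicate 1 against 165 to 257 in the others. *Cyp7a1*, the rate-limiting enzyme of bile acid synthesis, had 37.7 and 26.8 CPM against 49.4 to 229. *Abcb11*, the bile salt export pump, had 161 and 159 CPM against 293 to 495, and *Slc27a5*, a bile acid ligase, 274.5 and 189 against 423 to 577. *Slc51b*, which encodes a subunit of the organic solute transporter, lay above, at 4.86 and 5.29 CPM against 0.397 to 3.20.

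Among 14 tested HNF4A targets 5 lay below and 1 above, or 6 and 1 with DESeq2 size factors and 5 and 3 without RepB-/- replicate 2. For this and the next lists the shares over all genes tested were 21.3% below and 23% above. The lists share genes, such as *Cyp7a1* with the FXR targets and *Afp* between FOXA targets and fetal liver markers. *Apoc3*, an apolipoprotein of triglyceride-rich particles, had 211 and 140 CPM in the libraries numbered 1 against 691 to 1100 in the others, whereas *Apoa1*, the main protein of high-density lipoprotein, had 18310 and 15520 against 5470 to 12030. *Ttr*, which carries thyroid hormone, overlapped at 10280 and 6637 against 5399 to 7652. Of 6 FOXA targets none lay below and 2 above (3 without RepB-/- replicate 2), *Afp* and *Igfbp1*, an insulin-like growth factor binding protein at 2147 and 1361 CPM against 21.5 to 143. Of 7 hepatocyte markers *Serpina1c* lay below and *Ahsg* and *Apoa1* above, or 2 below and 2 above with DESeq2 size factors.

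The 26 other liver regulators split into 8 below, 4 above and the rest overlapping, where 21.3% of all genes tested lay below and 23% above. *Nr1i3*, the xenobiotic receptor CAR, had 43.5 and 66.6 CPM in the libraries numbered 1 against 114 to 259, and *Onecut2*, the paralogue of *Onecut1*, 23.4 and 27.9 against 40.0 to 74.0. *Rxra*, the partner of FXR in DNA binding, lay below as well, at 311 and 276 CPM against 357.5 to 460.1. *Dbp*, a clock output factor, had 17.2 and 10.1 CPM against 0.852 to 8.37, and *Cebpd*, another C/EBP gene, 20.5 and 19.5 against 4.22 to 10.8. *Creb3l3*, a hepatic membrane-bound factor, overlapped at 235 and 262 CPM against 195 to 319.

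**Figure D4:**
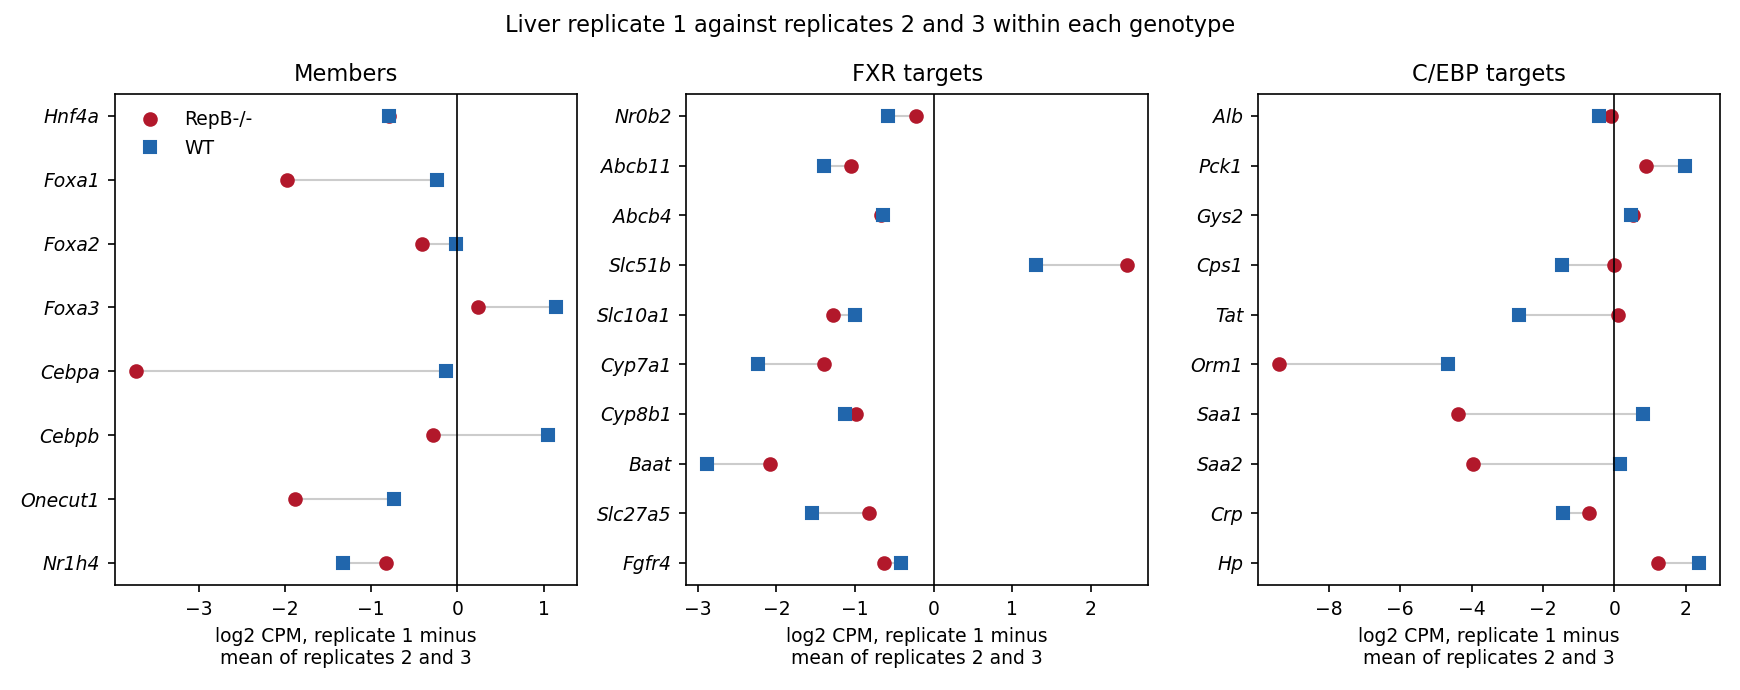
Log2 CPM of liver replicate 1 minus the mean of replicates 2 and 3, in RepB-/- (red circles) and WT (blue squares), for the 8 members, 10 FXR targets and 10 C/EBP targets, with 0 marked by a line and a different axis range in each panel. *Hnf4a* lies at -0.80 in both genotypes, *Cebpa* at -3.73 in RepB-/- and -0.13 in WT, and 9 of 10 FXR targets lie left of 0 in both genotypes.

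*Cebpa* in RepB-/- replicate 1 was then set beside the rest of that library. It held 1146 counts of *Cebpa*, against 10036 to 15587 in the other 5 liver libraries, and 15.3 TPM against 129 to 199. Only 11 of 16080 tested genes (0.0684%) lay at least 8-fold below every other liver library there, and *Cebpa* was one of them, 11.5-fold below the next library. In the other 5 libraries between 4 and 29 genes lay so low. The 10 other genes, named after their values were seen, were *Orm1*, *Orm2*, *Orm3*, *Saa1*, *Saa2*, *Cxcl13*, *Ago3*, *Hapln4*, *Hspa1l* and 9130409I23Rik. *Orm1*, *Orm2* and *Orm3* encode orosomucoids and *Saa1* and *Saa2* serum amyloid A, all acute-phase proteins.

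Of 10 C/EBP targets 2 lay below in both libraries numbered 1 and 2 above, or 3 and 3 without RepB-/- replicate 2. With 21.3% of all genes tested below and 23% above, these counts are not read as a result about the targets. *Orm1* had 1.17 CPM in RepB-/- replicate 1 and 24.5 in WT replicate 1 against 588.5 to 922 in the others. *Saa1* had 2.98 CPM in RepB-/- replicate 1, 103 in WT replicate 1 and 35.7 to 113 in the others, so it was low in that library alone, as *Cebpa* was. *Crp*, C-reactive protein, had 178 and 150 CPM in the libraries numbered 1 against 273 to 411. *Hp* (haptoglobin) went the other way, with 4781 and 11850 against 1367 to 3012, and so did *Gys2*, the liver glycogen synthase, with 130 and 126 against 85.3 to 95.3. *Alb* had 113500 CPM in RepB-/- replicate 1, within the range of the others. Reads of the antisense gene *Gm45091*, which shares 51 of 2636 exon bases with *Cebpa*, numbered 32 in that library and 14 to 47 in the others.

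In the liver genotype comparison none of the 105 tested genes of the 14 lists of regulators, targets and cell markers was called by edgeR or DESeq2, and 4 had an unadjusted p under 0.05, a share near the 3.12% of all genes. Median log2 fold changes were 0.012 for the other liver regulators, 0.32 for HNF4A targets, 0.52 for FOXA targets, -0.17 for C/EBP targets and -0.14 for FXR targets, against 0.012 over all genes. Markers of other cells had medians from -0.29 (Kupffer cells) to 1.87 (erythroid cells). Hepatocyte markers had a median of 0.35 and fetal liver markers of 0.45.

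Likeness across the 6 liver libraries was described by Pearson's r of log2 CPM, without a test and over libraries that share the split by replicate number. *Nr1h4* was most like *M6pr* (r = 0.999) and *Lypla1* (0.999), and *Hnf4a* like *Itfg1* (0.999) and *Ascc3* (0.997). *Cebpa* was most like *Rab43* (0.998) and *Ago3* (0.996), which also had its low value in RepB-/- replicate 1. With 22.6 CPM of *Cebpa* there and 261 to 309.5 in the others, these r values rest largely on that single library. *Fkbp1a* was among the genes most like *Cebpb* (0.989), and *Onecut1* was most like *Atat1* (0.997) and *B2m* (0.997). The pairs were *Apobec1* (0.995) and *Rccd1* (0.992) for *Foxa1*, *Mal* (0.994) and *Gm42979* (0.990) for *Foxa2*, and *Plod3* (0.989) and *Pcdhb17* (0.983) for *Foxa3*. The mean was under 1 CPM for *Mal*, *Gm42979* and *Pcdhb17*.

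In MEFs, only *Cebpa* and *Cebpb* passed the filter on low counts, and both were called higher in RepB-/- by edgeR's quasi-likelihood test, as were 19.4% of the 13306 genes tested, with 19.7% called lower. *Cebpb* had 101, 93.6 and 86.6 CPM in RepB-/- and 78.7, 75.0 and 77.7 in WT. Its groups did not overlap, and the log2 fold change was 0.28 (SE 0.076, adjusted p = 0.00989). *Cebpa* had 38.02, 37.7 and 37.6 CPM in RepB-/- and 34.4, 27.8 and 31.0 in WT. These groups did not overlap either (log2 fold change 0.29, SE 0.093, adjusted p = 0.0247). The rise of *Cebpa* was 1.22-fold. The call for *Cebpa* was lost with RepB-/- replicate 1, 2 or 3 or WT replicate 2 or 3 left out, where the adjusted p was up to 0.0937, and the call for *Cebpb* was lost without RepB-/- replicate 1 (adjusted p = 0.0541).

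Per length, levels in MEFs were taken from the deposited FPKM, counts divided by transcript length and library size with no TMM factor. *Cebpb* stood at 55.2 to 64.3 FPKM in RepB-/- MEFs and 50.2 to 56.6 in WT, and *Cebpa* at 13.7 to 13.8 and 10.6 to 14.1. The groups overlapped for both on this scale. In liver the levels in TPM were 55.0 to 185 for *Cebpb* and 15.3 to 199 for *Cebpa*. The tables use different annotations and units, so no comparison of the tissues was made.

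The other 6 members were close to the detection limit in MEFs. *Hnf4a* had 8, 3 and 3 counts in RepB-/- and 7, 9 and 6 in WT, and *Nr1h4* had 4, 3 and 8 and 5, 1 and 7. Both overlapped between genotypes. *Foxa1* had 0, 0 and 3 counts in RepB-/- and 8, 5 and 9 in WT. Of the 6, DESeq2 called this gene alone (adjusted p = 0.0419), as it called 31.4% of all genes with an adjusted p. In edgeR without the filter, which called 32% of all genes, the adjusted p was 0.0244. *Foxa3* had 0 counts in every RepB-/- library and 1, 3 and 5 in WT (adjusted p = 0.0416 in edgeR without the filter and 0.0933 in DESeq2). *Foxa2* had 0 counts in RepB-/- and 2, 3 and 0 in WT, and *Onecut1* 0 in RepB-/- and 1, 0 and 2 in WT. A count of 0 over the 3 RepB-/- libraries allows a level of up to 0.0491 CPM, which covers counting error only.

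Of the other liver regulators 18 were tested in MEFs, of which edgeR called 3 higher and 4 lower, a share close to the 39.1% of all genes called in either direction. *Cebpd*, another C/EBP gene and an early adipogenic factor, rose from 46.8 to 59.9 CPM in WT to 95.9 to 144 in RepB-/- (log2 fold change 1.16, SE 0.13, adjusted p = 2.1e-05). *Xbp1*, a factor of the secretory stress response, rose by less, with a log2 fold change of 0.26 (adjusted p = 0.00651). The T-box gene *Tbx3* fell by 1.01 on the log2 scale (adjusted p = 7.2e-05), and *Gata6*, an endoderm and mesoderm factor, by 2.19 (adjusted p = 1.2e-04). Its relative *Gata4*, among the 4 called lower, had 3, 2 and 11 counts in RepB-/- and 28, 34 and 29 in WT. *Gata4* passed the filter through its WT counts alone, so nothing is read from its call. *Rxra*, with the second highest level of these regulators, had a log2 fold change of -0.024 (adjusted p = 0.825). Of 2 tested C/EBP targets, *Hp* rose by a log2 fold change of 0.64 (adjusted p = 0.0141) and *Saa1* had 0.52 (adjusted p = 0.225). No FOXA target and no hepatocyte marker passed the filter, 1 HNF4A target (*F7*) and 1 FXR target (*Abcb4*) did, and neither was called by edgeR, with adjusted p = 0.779 and 0.342.

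Markers of cell state and cell type were set beside all MEF genes tested, of which edgeR called 19.4% higher and 19.7% lower. Most lists held few tested genes, so their counts are not read as particular to a cell type. All 6 proliferation markers rose, with sums of 251 to 269.5 CPM in RepB-/- and 154 to 179 in WT, among them *Top2a* (log2 fold change 1.01, adjusted p = 4.3e-06). Of 8 fibroblast markers 4 rose, led by *Pdgfra* (0.97, adjusted p = 1.7e-06), and *Thy1* fell, and the 8 summed to 29260 to 35140 CPM in RepB-/- and 20370 to 25230 in WT. *Pecam1* and *Kdr*, the 2 tested endothelial markers, fell (sums of 5.89 to 6.79 CPM in RepB-/- and 16.3 to 20.2 in WT), as did *Acta2* among 3 tested stellate cell markers. Of 5 cholangiocyte markers *Krt7* and *Sox9* rose and *Krt19* fell. Among 4 fetal liver markers *Dlk1* rose and *Gpc3* and *Igf2bp1* fell, and of 2 Kupffer cell markers *Adgre1* rose and *Cd68* fell. Of 2 erythroid markers *Epor* was called lower, with 4, 2 and 11 counts in RepB-/- and 23, 9 and 22 in WT. *Epor* passed the filter through its WT counts alone, so nothing is read from its call. The part of these cell states and types in the *Cebpa* and *Cebpb* values was not tested.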

How the data were processed

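Groups and replicate numbers came from the sample titles. Per the paper's methods, Cutadapt trimming and Hisat2 alignment were used by the authors, while the submitters' processing notes list Trim Galore 0.4.1, STAR 2.7.0 and HTSeq 0.12.4 without roles. The libraries were poly(A) selected and called stranded, and the strand setting of the counting is not given in the sources used here. The deposited tables hold whole-number counts per gene, with FPKM (MEF, GRCm39) and TPM (liver, GRCm38) made by the authors.

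Each tissue was fitted by itself in edgeR 4.0.16 (R 4.3.3) with TMM, filterByExpr defaults, genotype as the term, a quasi-likelihood test and Benjamini-Hochberg adjustment over all genes tested. Log2 CPM used a prior count of 2. Members, gene lists and the split by replicate number were chosen with earlier results of these data known. All members were named, and from each list those past the threshold (at most 5), the 2 of highest mean CPM and the 2 with the largest difference in replicate 1 in each direction. *Tf* was not found under that symbol. Alternatives were DESeq2 1.42.0, its size factors in edgeR, no filter, a mean of at least 1 CPM, a replicate block, a term for replicate 1 (also without RepB-/- replicate 2) and each library left out. That term with another library numbered 2 or 3 left out was added after the data were seen. The fit was tested on simulated data. Residuals of libraries with the same number correlated across genes in liver (r of 0.71, 0.36 and 0.37), where the numbers were taken as pairs although numbers 2 and 3 each correlated best with the other, and not in MEFs (-0.011, -0.042 and -0.0035). In the likeness of genes to the members, 1 gene is not reported here.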

Additional observations from a re-analysis of the deposited data

Results flagged for a closer look

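*Cebpb* drew attention because its libraries moved in opposite directions in the 2 genotypes of liver. RepB-/- replicate 1 lay below both other RepB-/- libraries, with a log2 difference of -0.28, and WT replicate 1 lay above both other WT libraries, with a difference of 1.05. The difference between the genotypes was not tested, and 10.7% of all genes tested had replicate 1 on opposite sides in this way.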

How the results depend on the processing

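Over 16 settings, 120 of 128 liver estimates of the members kept their sign, and no member was called under any of them. The estimate turned to 0.12 for *Cebpa* without RepB-/- replicate 1, to -0.038, -0.051 and -0.14 for *Hnf4a* without RepB-/- replicate 2, RepB-/- replicate 3 or WT replicate 1, and to 0.013 for *Nr1h4* without WT replicate 2. For *Foxa3* it turned to 0.0091 without RepB-/- replicate 3, 0.29 without WT replicate 1, and 0.032 with the term for replicate 1 and without RepB-/- replicate 3. With single libraries left out the estimates ranged from -0.14 to 0.30 for *Hnf4a*, -0.45 to 0.29 for *Foxa3*, -0.81 to 0.12 for *Cebpa* and -0.64 to 0.013 for *Nr1h4*. In MEFs all 22 estimates for *Cebpa* and *Cebpb* over 11 settings kept their sign. The number of members called there was 4 without the filter, where *Foxa1* and *Foxa3* were tested and 3067 genes were called higher and 3114 lower of 19330, and 0 to 2 with single libraries left out. The genes called with single libraries left out numbered 1918 to 2536 higher and 2038 to 2726 lower. Without WT replicate 2 the 2 included *Foxa1*, which passed the filter through its WT counts alone, so nothing is read from its call. The causes of these turns were not tested.

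Genes called in liver numbered 1 higher and 5 lower, against 34 and 46 in DESeq2, 0 and 0 without the filter, 0 and 2 at a mean of at least 1 CPM, and 0 to 1 and 0 to 3 with single libraries left out. With the term for replicate 1 there were 3 higher and 6 lower, 1 and 2 also without RepB-/- replicate 2, 2 and 2 without RepB-/- replicate 3, 0 and 1 without WT replicate 2, and 2 and 3 without WT replicate 3. With the replicate block as pairing there were 3 higher and 5 lower in liver, with -0.89 for *Foxa2* (adjusted p = 0.446) and 1.35 for *Cebpb* (adjusted p = 0.501), and the block changed no call of a member in either tissue. Where 1 library was left out, its group kept 2. The spread between liver libraries (biological coefficient of variation 51.2%, or 32.7% with the term for replicate 1 and 33.7% with the block, against 9.06% in MEFs) limits what 3 libraries a group can show, and the 6 members with few MEF counts are limited by depth.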
